A study of Papio anubis and Macaca mulatta with 6 samples.

Results

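The WNT ligands, their receptors and their secreted modulators were described across the cells of the immature testis in baboons and rhesus monkeys. The genes were chosen by symbol alone: every listed symbol of the WNT, FZD, SFRP, RSPO or DKK families (with DKKL1), together with LRP5, LRP6, WIF1 and AXIN2. This gave 45 genes of the 34178 listed for the baboon and 44 of the 21356 listed for the rhesus monkey, and 46 symbols in all. Both lists held 43 of them, FZD1 and DKKL1 were listed for the baboon only, and WNT3A was listed for the rhesus monkey only.

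Unselected cells from the testes of 2 baboons and 2 rhesus monkeys were sequenced with the 10x Genomics 3′ method, which counts unique molecular identifiers (UMIs, 1 for each captured RNA molecule) near the 3′ end of each transcript. Baboon 1 had 2 libraries (1A and 1B) and baboon 2 had 1, while rhesus 1 had 1 library and rhesus 2 had 2 (2A and 2B). Baboon 2 was the only library made with version 3 of the chemistry, so that animal and chemistry cannot be told apart in the baboon. No animal was treated. The tissue was taken at necropsy and digested with collagenase, which was followed by a wash that removes interstitial cells, and then with trypsin, so the share of each cell type is not that of the testis. The stated ages are newborn, 15, 20 and 26 months, but the design text and the methods give each pair to the opposite species, no age could be assigned to an animal, and age was not used.

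The libraries held 16875294 to 49803025 UMIs and 5581 to 11141 called cells, which gave 23079 baboon and 26444 rhesus cells with library medians of 1445 to 2740 UMIs. Within a species, 1 to 123 cell barcodes were shared by any 2 libraries. Cells were clustered without the genes described here, and clusters were named from markers. The baboon cells were 17158 Sertoli-like, 3472 stroma-like (fibroblast-like interstitial cells with DCN, COL1A1 and C7), 386 endothelial-like, 302 germ-like and 152 pericyte-like cells, and 1609 cells stayed unnamed. The rhesus cells were 15371 stroma-like, 8122 Sertoli-like, 753 endothelial-like, 575 Leydig-like, 565 germ-like, 417 pericyte-like, 215 macrophage-like, 99 peritubular myoid-like and 56 cells like rete or other epithelium, and 271 stayed unnamed. Each tested class held UMIs of its own marker list, with 12 of 12 stroma markers in the baboon and 11 of 11 in the rhesus monkey, 16 of 16 germ cell markers in each of the 4 animals, and 6 and 8 of 10 pericyte markers in the rhesus monkey. The clusters were named from the same lists, and 1 UMI was enough to count a marker. These counts are therefore no separate support for the names. Rhesus pericyte-like cells also held stroma markers at 6453 and 2420 CPM (UMIs scaled to a total of 1000000) in animals 1 and 2. No baboon cluster was named Leydig-like. Levels are given as CPM of the summed cells of 1 class of 1 animal, so that n is 2 animals and a smaller share of expressing cells cannot be told apart from less RNA per cell. Levels were compared within a species and within a gene only, because annotation and capture differ between species and between genes.

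WNT proteins are secreted glycoproteins that carry a lipid on a conserved serine, and they signal to nearby cells through Frizzled (FZD) receptors, with the co-receptors LRP5 and LRP6 in the branch that stabilizes β-catenin. R-spondins (RSPO) strengthen the response by keeping Frizzled receptors on the cell surface, whereas secreted Frizzled-related proteins (SFRP) and WIF1 bind WNTs, and Dickkopf proteins such as DKK1 and DKK2 bind LRP5 and LRP6. In the developing gonad, WNT4 and RSPO1 are known for their part in ovary formation, and β-catenin signalling has to stay low in the fetal testis for Sertoli cells to be maintained.

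The reference genome of the rhesus build (Mmul_10, RefSeq) shows the site of that lipid in each ligand. In all 19 rhesus WNT genes, a stretch of 24 coding bases around the serine lay within 1 exon, and 10 of the 24 positions held the same base in every gene. The stretches of the ligands that the results name are shown 5′ to 3′ on the coding strand, with the serine codon in capitals.
WNT2 (chr3:143504717-143504740, minus strand): tgccatggggtgAGCggctcgtgt
WNT2B (chr1:111695384-111695407, minus strand): tgccatggcgtgAGTggttcctgt
WNT3 (chr16:57219320-57219343, plus strand): tgtcacgggctgTCGggcagctgt
WNT4 (chr1:202659130-202659153, plus strand): tgccacggggtgTCAggctcctgt
WNT5A (chr2:111631142-111631165, minus strand): tgccatggggtgTCTggctcatgt
WNT5B (chr11:1707763-1707786, plus strand): tgccacggcgtcTCGgggtcctgc
WNT6 (chr12:106307752-106307775, plus strand): tgccacgggctgTCGggctcgtgc
WNT9A (chr1:85518157-85518180, minus strand): tgccacggcgtaTCAggctcatgc
WNT10A (chr12:106327697-106327720, plus strand): tgccacggcacgTCAggcagctgc
WNT11 (chr14:69253596-69253619, minus strand): tgccatggggtgTCTggctcctgc
WNT2 and WNT2B used a serine codon that starts with AG, and the other 17 rhesus WNT genes used one that starts with TC. WNT6 (chr12:106294167-106308942) and WNT10A (chr12:106313728-106328807) lie next to each other on the same strand.

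Altogether, the genes took 0.0429% of the UMIs in baboon cells (34045 UMIs) and 0.0569% in rhesus cells (27812 UMIs). In the baboon, 19 of 45 genes reached 100 UMIs, 24 had 1 to 99, and WNT8B and RSPO4 had none. In the rhesus monkey, 16 of 44 genes reached 100 UMIs, 24 had 1 to 99, and WNT3A, WNT8B, WNT16 and FZD7 had none. A filter on low counts left 21 baboon and 10 rhesus genes for testing. As it keeps a gene that is high in a single class, the genes that passed are a selected group. RSPO2 and WNT11 of the baboon reached its level in germ-like cells alone and baboon DKK1 in stroma-like cells alone, so their values are given without a test against those classes, although the counts of calls include them. Baboon WNT5A and SFRP4 reached it in both stroma-like sums, and otherwise in 1 sum only. The same held for baboon WNT3 and WNT5B in germ-like cells, rhesus WNT2B in stroma-like cells and rhesus FZD6 in endothelial-like cells. Rhesus LRP5 reached it in 1 endothelial-like and 1 peritubular myoid-like sum. Adjusted p values of these genes for those classes therefore rest on genes that the filter selected. They lend no support of their own to a high level there, and the counts of calls include these genes as well. Of the 21 baboon genes, 18 differed among the 5 classes (edgeR quasi-likelihood test, Benjamini-Hochberg adjusted p below 0.05 over 12794 genes), beside 48.6% of all genes tested. Of the 10 rhesus genes, 7 differed among 8 classes, beside 45.8% of 9528 genes. LRP6, AXIN2 and WNT5B missed the threshold in the baboon (adjusted p = 0.0610, 0.0718 and 0.124) and passed it with the animal as a block (adjusted p = 0.0107, 0.0132 and 0.00384), a fit that called 71.5% of all genes. In the rhesus monkey LRP5, LRP6 and SFRP4 missed it (adjusted p = 0.148, 0.226 and 0.287), of which LRP5 and SFRP4 passed with the block (adjusted p = 0.0335 and 0.00317), beside 63.5% of all genes.

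**Figure D1:**
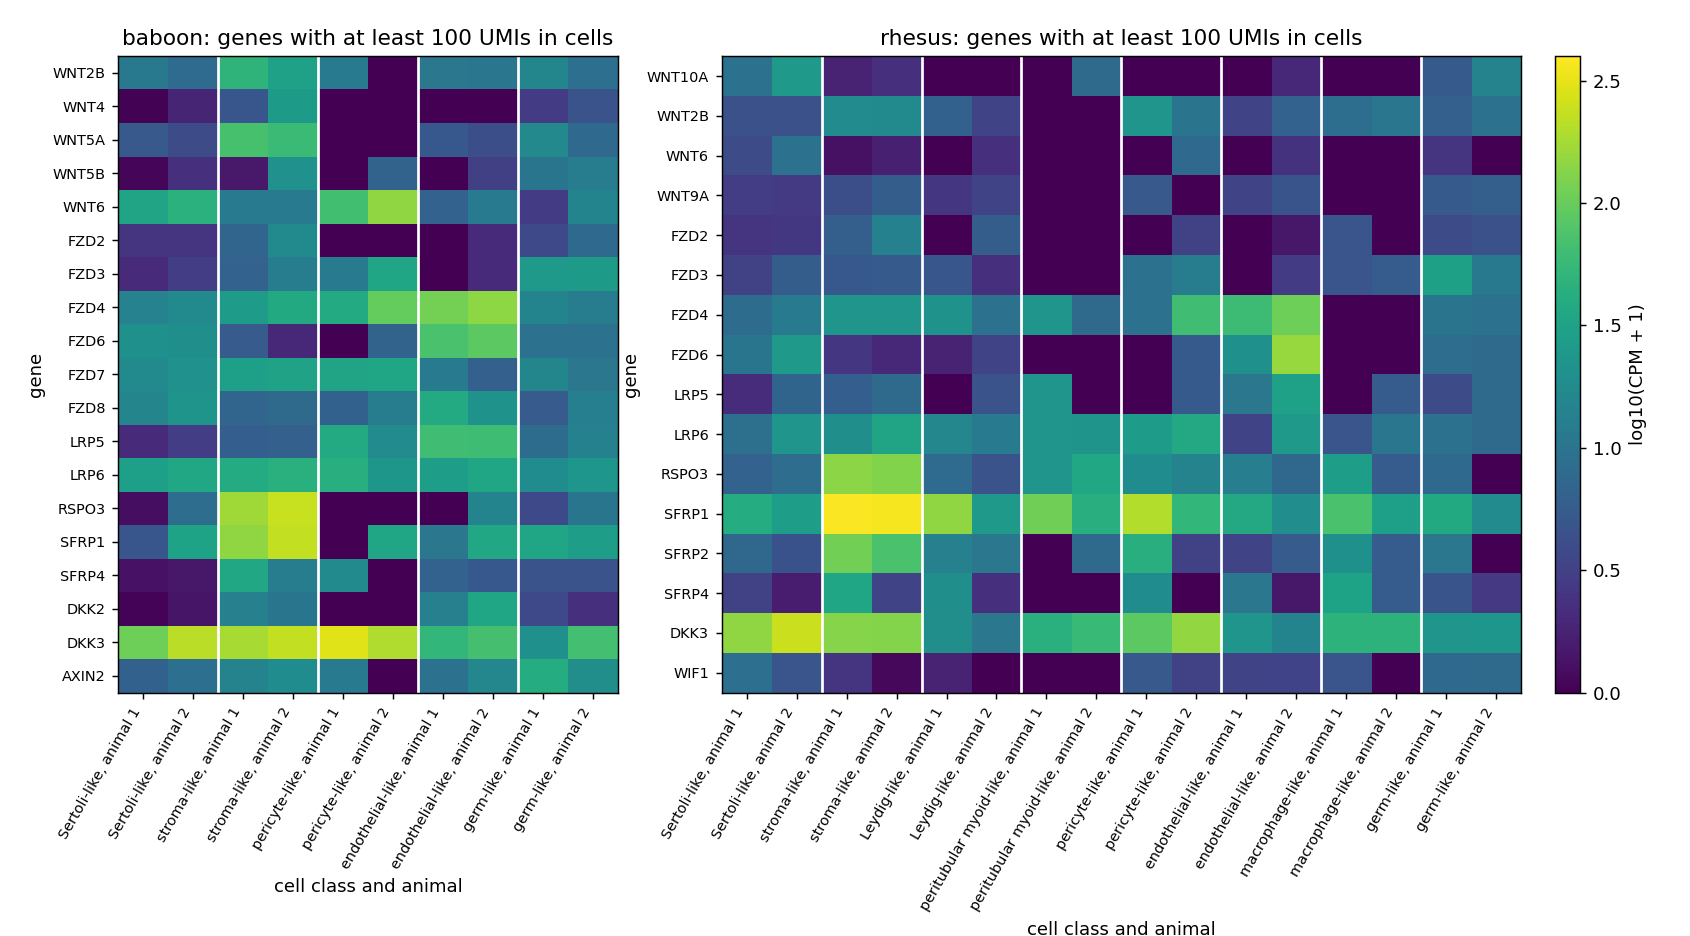
Heat map of the level, as log10(CPM + 1), of the genes with at least 100 UMIs (rows, ordered by role) in each cell class of each of 2 animals (columns) in the baboon (left) and the rhesus monkey (right). RSPO3 and SFRP1 are brightest in stroma-like cells of both species, FZD4 and FZD6 are bright in endothelial-like cells, and DKK3 is bright in both Sertoli-like and stroma-like cells.

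Some baboon ligands had their high values in stroma-like cells, WNT6 in pericyte-like and Sertoli-like cells, and others in germ-like cells. For pericyte-like and germ-like cells the share of genes called was near that of all genes. WNT5A, a ligand known mainly for β-catenin-independent signalling, had 69.2 and 58.4 CPM in stroma-like cells of baboons 1 and 2. The other classes held 0 to 15.6 CPM, the top value being that of germ-like cells of baboon 1. WNT5A was higher in stroma-like than in Sertoli-like cells, which had 4.34 and 2.98 CPM, with a log2 difference of -4.17 ± 0.50 for Sertoli-like against stroma-like cells (SE, adjusted p = 0.00128). WNT2B, a ligand of stromal cells in several organs, had 47.6 and 29.7 CPM in stroma-like cells. Sertoli-like cells held 10.2 and 7.06 CPM of it, a log2 difference of -2.20 ± 0.52 (SE, adjusted p = 0.0169). Rhesus WNT2B had 17.1 and 16.3 CPM in stroma-like cells and 3.36 and 3.39 CPM in Sertoli-like cells (log2 difference -2.38 ± 0.58, adjusted p = 0.0161). Stroma-like and Sertoli-like values of WNT2B did not overlap in either species. Rhesus pericyte-like cells, at 21.5 and 9.00 CPM of WNT2B, overlapped with the stroma-like ones. Baboon WNT5A and rhesus WNT2B passed the filter through stroma-like cells, so their p values are no separate support. WNT5A had 4 UMIs in all rhesus cells. Genes named in a species where they had fewer than 100 UMIs and passed no test, as here, were chosen after their values were seen.

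WNT6 had 2699 UMIs in baboon cells. Its level was 64.2 and 147 CPM in pericyte-like cells, 32.0 and 44.4 CPM in Sertoli-like cells and 11.03 and 10.9 CPM in stroma-like cells. Pericyte-like cells were higher than the mean of the other classes (log2 difference 3.01 ± 0.49, adjusted p = 0.00432), beside 4.91% of all genes, and they number 97 and 55 cells. WNT6 was the 1 gene of 21 called there, a share near the background. With the animal as a block the calls were 3 (WNT6, DKK3 and FZD3), beside 6.28%. The Sertoli-like and stroma-like values did not overlap, but their difference of 1.72 ± 0.56 on the log2 scale missed the threshold (adjusted p = 0.0609) and passed it with the animal as a block (adjusted p = 0.00224). Rhesus WNT6 had 2.90 and 8.54 CPM in Sertoli-like cells and 0.311 and 0.705 CPM in stroma-like cells. Its neighbour WNT10A had 8.58 and 23.98 CPM in rhesus Sertoli-like cells, and 0.828 and 1.27 CPM in stroma-like cells. Rhesus pericyte-like cells reached 6.75 CPM of WNT6 and germ-like cells 13.7 CPM of WNT10A, each above the lower Sertoli-like value. Neither rhesus gene passed the filter, so these are values without a test.

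Other baboon ligands had high values in germ-like cells. WNT3 had 13.7 and 16.5 CPM there and 0.130 and 0.954 CPM in Sertoli-like cells, and germ-like cells were higher than the mean of the other classes (log2 difference 2.83 ± 0.70, adjusted p = 0.0110). Pericyte-like cells overlapped with them, at 5.35 and 16.9 CPM. As WNT3 passed the filter through germ-like cells, its p value there is no separate support. WNT11, a ligand of cell movement in early development, had 8.24 and 9.78 CPM in germ-like cells, 1.00 and 4.57 CPM in stroma-like cells and no UMI in pericyte-like or endothelial-like cells. It was higher in stroma-like than in Sertoli-like cells (log2 difference -3.79 ± 0.86 for Sertoli-like against stroma-like cells, adjusted p = 0.0206). The stroma-like value of baboon 1 rested on 0 and 2 UMIs in libraries 1A and 1B, and that of baboon 2 on 18 UMIs. WNT5B held 9.15 and 11.6 CPM in germ-like cells and 0.501 and 19.6 CPM in stroma-like cells, so that the stroma-like values lay on both sides of the germ-like ones. Its germ-like level against the mean of the other classes missed the threshold (adjusted p = 0.202) and passed it with the animal as a block (adjusted p = 0.0285). In all, 5 of the 21 genes (RSPO2, FZD3, WNT11, WNT3 and AXIN2) were higher in germ-like cells than in the mean of the other classes, beside 24.4% of all genes, a share near the background, and with the block WNT5B joined them, beside 31%. Sertoli markers summed to 1161 and 2856 CPM in the baboon germ-like cells.

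WNT4 had 4.01 and 24.9 CPM in baboon stroma-like cells, 0.0324 and 0.864 CPM in Sertoli-like cells, and no UMI in pericyte-like or endothelial-like cells. Germ-like cells held at most 3.67 CPM. A part of its 209 UMIs in baboon cells lay in cells that stayed unnamed, so it was not confined to these classes. Rhesus WNT9A was low in every class, with 3.21 and 4.79 CPM in stroma-like cells and 1.97 and 1.76 CPM in Sertoli-like cells. Neither of the 2 passed the filter.

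The Frizzled receptors were divided between the endothelium and the other classes. FZD4, which binds norrin as well as WNTs and is required for retinal vessels, had 114 and 142 CPM in baboon endothelial-like cells. The next highest values of FZD4 were those of pericyte-like cells, at 37.4 and 96.0 CPM, and Sertoli-like cells held 13.4 and 16.4 CPM. Rhesus FZD4 had 60.2 and 106 CPM in endothelial-like cells and 63.0 CPM in pericyte-like cells of animal 2, where animal 1 had 8.62 CPM. Endothelial-like cells were higher than the mean of the other classes in both species (log2 difference 2.42 ± 0.26, adjusted p = 0.000157 in the baboon, and adjusted p = 0.000212 in the rhesus monkey, where macrophage-like cells had no UMI). After thinning each cell to 1000 UMIs, 12.8% of 305 baboon endothelial-like cells had a UMI of FZD4 (95% Clopper-Pearson interval 9.25 to 17.1%, counting error only). The share was 33.9% before thinning, and 81 shallower cells were left out. Among the Sertoli-like cells the thinned share was 1.46%.

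FZD6 had 71.0 and 88.0 CPM in baboon endothelial-like cells, 19.2 and 18.9 CPM in Sertoli-like cells, and 4.51 and 1.02 CPM in stroma-like cells. Rhesus FZD6 had 19.3 and 159 CPM in endothelial-like cells, 9.16 and 23.7 CPM in Sertoli-like cells, and 1.55 and 0.987 CPM in stroma-like cells. FZD6 was the only gene of the set that was higher in Sertoli-like than in stroma-like cells at the threshold in either species, by 2.90 ± 0.58 on the log2 scale in the baboon (adjusted p = 0.00807) and 3.49 ± 0.80 in the rhesus monkey (adjusted p = 0.0127). This count of 1 of 21 and 1 of 10 genes stood beside 6.68% and 6.15% of all genes. With the animal as a block, WNT6 and FZD8 joined it in the baboon, which made 3, beside 16.9%. FZD6 was also higher in endothelial-like cells than in the mean of the other classes (adjusted p = 0.000170 for the baboon and 5.03e-05 for the rhesus monkey). Rhesus FZD6 passed the filter through endothelial-like cells, so that p value is no separate support. Endothelial-like values of the 2 rhesus animals lay far apart for FZD6, and the lower one fell below the higher Sertoli-like value. The 141 endothelial-like cells of rhesus 1 held lymphoid markers at 3100 CPM, against 1.86 CPM in rhesus 2, and the part of these in the gap was not tested.

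LRP5 was also high in endothelial-like cells, whereas LRP6 was read in every tested class. Baboon LRP5 had 62.7 and 61.5 CPM in endothelial-like cells, 37.4 and 16.9 CPM in pericyte-like cells, and no more than 12.8 CPM in the other classes (log2 difference 3.25 ± 0.31 for endothelial-like cells against the others, adjusted p = 7.42e-05). Sertoli-like cells had 1.10 and 2.00 CPM, below the 5.01 and 5.34 CPM of stroma-like cells (log2 difference -1.82 ± 0.45, adjusted p = 0.0210). Rhesus endothelial-like cells had 9.64 and 29.7 CPM of LRP5 (log2 difference 2.66 ± 0.73, adjusted p = 0.0298). A value of 21.7 CPM in peritubular myoid-like cells rested on a single UMI in 23 cells. Rhesus LRP5 passed the filter through 1 sum of each of these 2 classes, so its p value is no separate support. In the edgeR test among classes it missed the threshold (adjusted p = 0.148). LRP6 had 17.4 to 43.7 CPM in the baboon classes and 2.41 to 36.0 CPM in the rhesus classes, where the lowest value rested on 1 UMI. In the baboon, stroma-like cells were at 39.1 and 43.7 CPM and Sertoli-like cells at 28.0 and 34.2 CPM, and that difference missed the threshold (adjusted p = 0.333).

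The remaining receptors each had a pattern of their own. FZD3, a receptor of planar cell polarity, had 23.8 and 25.1 CPM in baboon germ-like cells and 29.3 and 10.3 CPM in rhesus germ-like cells. In the baboon, germ-like cells were higher than the other classes (log2 difference 2.55 ± 0.49, adjusted p = 0.00305), with pericyte-like cells overlapping at 10.7 and 33.9 CPM. Sertoli-like cells held 1.04 and 1.94 CPM of FZD3, below the 5.52 and 11.7 CPM of stroma-like cells (log2 difference -2.63 ± 0.59, adjusted p = 0.0133). FZD7 ranged from 5.30 to 33.9 CPM over all baboon classes, with 28.1 and 30.2 CPM in stroma-like and 16.5 and 19.6 CPM in Sertoli-like cells. That difference passed with the animal as a block (adjusted p = 0.0425) and not without it (adjusted p = 0.212). FZD8 had 37.6 and 20.1 CPM in endothelial-like cells and 14.3 and 20.9 CPM in Sertoli-like cells of the baboon, so that these classes overlapped, and 6.02 and 6.86 CPM in stroma-like cells. Endothelial-like cells were higher than the mean of the other classes (log2 difference 1.69 ± 0.43, adjusted p = 0.0288). FZD2, with 6.02 and 16.3 CPM in baboon and 5.18 and 13.04 CPM in rhesus stroma-like cells, did not pass the filter in either species.

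Endothelial-like cells were higher than the mean of the other classes for 5 of 21 baboon genes (LRP5, FZD4, FZD6, FZD8 and DKK2), beside 9.57% of all genes. The same held for 3 of 10 rhesus genes (FZD6, FZD4 and LRP5), beside 9.52%. Of these, rhesus FZD6 passed the filter on low counts through endothelial-like cells, and rhesus LRP5 through endothelial-like and peritubular myoid-like cells. For FZD6 and LRP5 the rhesus count is therefore no separate support. Sertoli markers summed to 1081 to 1946 CPM in the endothelial-like cells of the 4 animals, and stroma markers to 239.5 to 1084 CPM.

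RSPO3 was high in stroma-like cells and low elsewhere. Baboon stroma-like cells held 167 and 239 CPM, and the remaining classes 0 to 13.8 CPM. Rhesus stroma-like cells held 140 and 126 CPM, and the other tested classes 0 to 34.9 CPM, highest in peritubular myoid-like cells of animal 2. The 2 groups of values did not overlap in either species. Sertoli-like against stroma-like cells differed by -5.85 ± 1.27 on the log2 scale in the baboon (adjusted p = 0.0137) and by -4.45 ± 0.59 in the rhesus monkey (adjusted p = 0.000568), which is 57.9-fold and 21.9-fold higher in stroma-like cells. A UMI of RSPO3 was found in 18.8% of 2890 baboon stroma-like cells thinned to 1000 UMIs (95% interval 17.4 to 20.3%) and in 0.445% of 15505 Sertoli-like cells. The shares before thinning were 26.0% and 1.20%, and 582 stroma-like and 1653 Sertoli-like cells were too shallow. Free RNA, taken from near-empty droplets, held 7.87 to 33.2 CPM of RSPO3 in the baboon libraries and 18.9 to 22.9 CPM in the rhesus libraries, so the Sertoli-like levels of 0.259 and 7.48 CPM (baboon) and 5.57 and 7.53 CPM (rhesus) lay below the free RNA. A Sertoli-like cluster had 91.0 CPM of RSPO3 in its 390 cells of baboon 2 and 0.319 CPM in its 2618 cells of baboon 1, where its stroma markers summed to 3408 and 100.5 CPM.

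RSPO2, a paralogue of RSPO3, was read mostly in germ-like cells. Of its 63 UMIs in baboon cells, 26 and 32 came from the 144 and 158 germ-like cells of animals 1 and 2, a level of 23.8 and 19.6 CPM. Stroma-like, Sertoli-like, pericyte-like and endothelial-like cells of the baboon held 0 to 2 UMIs per animal. Thinned to 1000 UMIs, 3.04% of 263 germ-like cells had a UMI (95% interval 1.32 to 5.91%, 15.2% before thinning), beside 0.00645% of 15505 Sertoli-like cells. Of 23 rhesus UMIs, 16 and 2 were in germ-like cells, which gave 12.03 and 3.42 CPM, and the value of animal 2 lies under the level that 3 UMIs would give. No UMI of RSPO2 was found in the free RNA of the baboon libraries, which held 180583 to 1651577 UMIs. Its level over all cells of a library was only 0.60 to 0.88 CPM. So few UMIs would be due in free RNA that their absence cannot tell whether free RNA held any. RSPO1 had 12 UMIs in baboon cells and 88 in rhesus cells.

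Of the secreted Frizzled-related proteins, SFRP1 was higher in stroma-like cells than in the mean of the other classes in both species, SFRP4 in the baboon and SFRP2 in the rhesus monkey. SFRP1 held 146 and 231 CPM in baboon stroma-like cells and 386 and 365 CPM in rhesus stroma-like cells. Sertoli-like cells held 3.99 and 31.4 CPM in the baboon and 39.4 and 27.2 CPM in the rhesus monkey. The differences were -3.55 ± 0.87 (adjusted p = 0.0199) and -3.54 ± 0.78 (adjusted p = 0.00829) on the log2 scale. In rhesus animal 1, Leydig-like and pericyte-like cells had 147 and 198 CPM of SFRP1, whereas animal 2 had 24.4 and 51.7 CPM, and free RNA held 79.2 to 87.0 CPM in the 3 rhesus libraries and 16.3 to 144 CPM in the baboon libraries. SFRP2 had 110 and 70.3 CPM in rhesus stroma-like cells and 6.50 and 3.51 CPM in Sertoli-like cells (log2 difference -4.20 ± 0.83, adjusted p = 0.00447), but only 10 UMIs in all baboon cells. SFRP4 had 34.6 and 11.4 CPM in baboon stroma-like cells and 0.324 and 0.477 CPM in Sertoli-like cells (log2 difference -5.86 ± 0.82, adjusted p = 0.00163). Baboon SFRP4 passed the filter through stroma-like cells, so this p value is no separate support. Rhesus SFRP4 had 32.5 and 2.40 CPM in stroma-like cells and 2.20 and 0.628 CPM in Sertoli-like cells, which missed the threshold (adjusted p = 0.132) and passed it with the animal as a block (adjusted p = 0.000918). Its macrophage-like values of 31.0 and 4.75 CPM overlapped with the stroma-like ones, and stroma-like cells against the mean of the other classes missed the threshold (adjusted p = 0.347) and passed with the block (adjusted p = 0.0268).

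**Figure D2:**
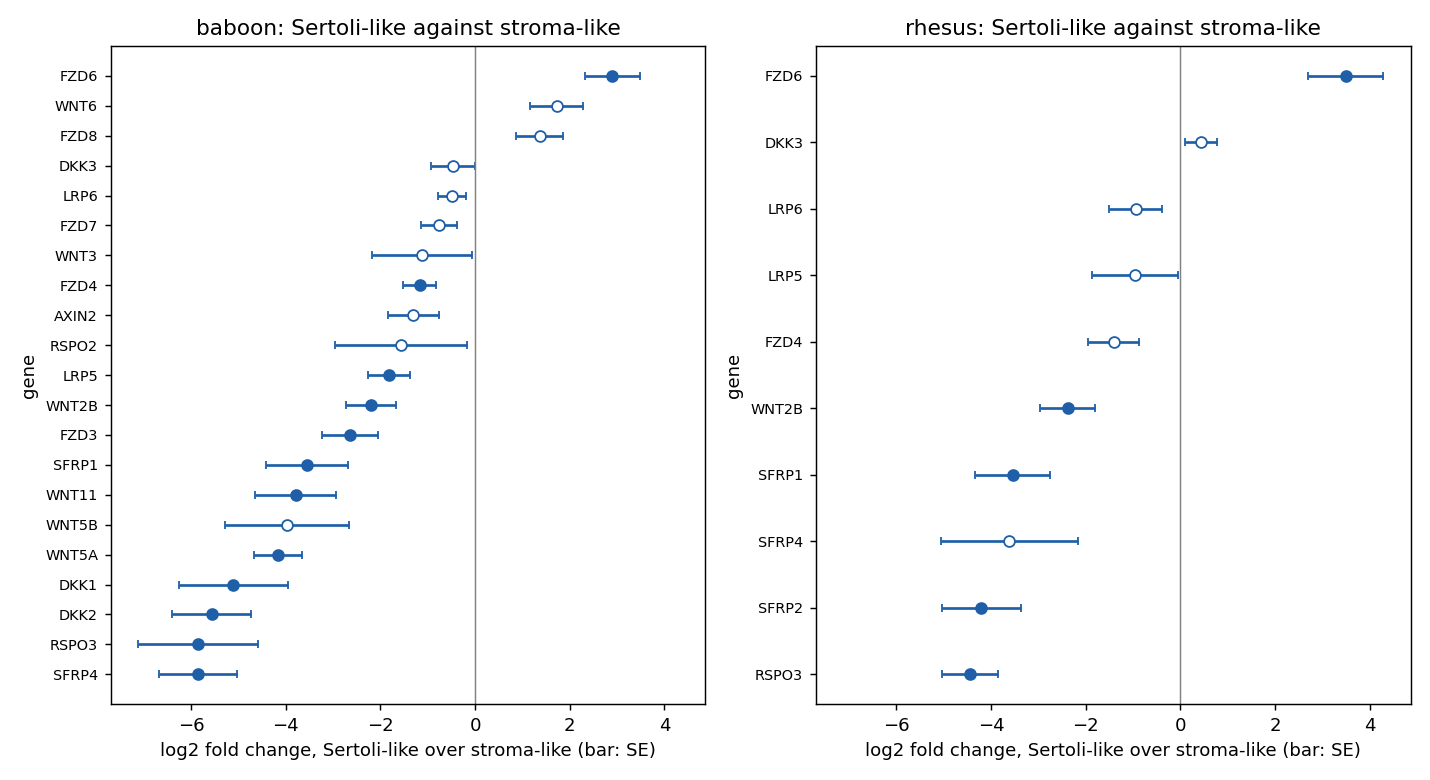
Log2 fold change of Sertoli-like over stroma-like cells (points, with SE as bars) for each gene that passed the filter on low counts in the baboon (left, 21 genes) and the rhesus monkey (right, 10 genes). Filled points have an adjusted p below 0.05, and FZD6 is the only filled point above 0 in each species, while RSPO3 lies at -5.85 and -4.45.

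Lower levels in Sertoli-like than in stroma-like cells were found for 11 of 21 baboon genes, beside 11.3% of all genes, and for 4 of 10 rhesus genes, beside 6.8%. The block gave 14 and 6, beside 17.6% and 12.2%. The median log2 difference of the tested genes was -1.82 for the baboon and -1.90 for the rhesus monkey, where those of all genes were 0.0609 and 0.0183. These counts and medians include baboon WNT5A, SFRP4 and DKK1 and rhesus WNT2B, which passed the filter through stroma-like cells. For those genes they are no separate support. RSPO3, SFRP1 and WNT2B were called in both species. Against the mean of the other classes, stroma-like cells were higher for 7 of 21 baboon genes (WNT5A, RSPO3, SFRP4, SFRP1, WNT2B, DKK1 and DKK2), beside 7.61%, and for 5 of 10 rhesus genes (RSPO3, SFRP2, DKK3, SFRP1 and WNT2B), beside 3.52%. Of these, baboon WNT5A, SFRP4 and DKK1 and rhesus WNT2B passed the filter through stroma-like cells. In the baboon the block gave 10 genes, with DKK3, FZD7 and LRP6 added, beside 13.9%. DESeq2 gave 9, without DKK1 and with the same 3 added, beside 9.5%. Summed stroma markers were at 10079 and 12841 CPM in baboon stroma-like cells and 85.5 and 398 CPM in Sertoli-like cells, the higher of which moved with the higher Sertoli-like RSPO3 and SFRP1 of baboon 2, and their part in these levels was not tested. Sertoli-like cells were higher than the mean of the other classes for 0 of 21 baboon genes by edgeR and by DESeq2, beside 9.41% and 9.97%. By each, 2 genes had an unadjusted p below 0.05. With the animal as a block, WNT6 and FZD6 were called, beside 18.4%. The rhesus count was 1 of 10 (DKK3), beside 8.04%, and 2 with the block (DKK3 and FZD6), beside 13.6%.

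The promoters of RSPO3, WNT2B and DKK1, from among the 7 genes called higher in baboon stroma-like cells, are shown. Each runs from 250 bases before to 50 bases after the RefSeq gene start in Mmul_10, 5′ to 3′ on the gene's strand, and capitals mark CTTTGAT or CTTTGAA on either strand, the core that TCF and LEF factors bind in WNT target genes.
RSPO3 (chr4:30666283-30666582, plus strand): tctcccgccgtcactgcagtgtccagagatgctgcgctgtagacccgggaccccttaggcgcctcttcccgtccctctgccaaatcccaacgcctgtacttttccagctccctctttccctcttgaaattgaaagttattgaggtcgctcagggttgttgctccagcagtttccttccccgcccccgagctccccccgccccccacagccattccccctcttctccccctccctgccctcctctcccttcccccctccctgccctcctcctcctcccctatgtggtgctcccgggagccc
WNT2B (chr1:111704039-111704338, minus strand): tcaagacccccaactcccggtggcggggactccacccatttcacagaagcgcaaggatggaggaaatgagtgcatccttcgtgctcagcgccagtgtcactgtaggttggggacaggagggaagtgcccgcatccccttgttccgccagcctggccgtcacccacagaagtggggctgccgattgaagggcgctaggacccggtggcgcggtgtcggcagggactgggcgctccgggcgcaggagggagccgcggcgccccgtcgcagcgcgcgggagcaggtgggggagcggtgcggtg
DKK1 (chr9:85635442-85635741, minus strand): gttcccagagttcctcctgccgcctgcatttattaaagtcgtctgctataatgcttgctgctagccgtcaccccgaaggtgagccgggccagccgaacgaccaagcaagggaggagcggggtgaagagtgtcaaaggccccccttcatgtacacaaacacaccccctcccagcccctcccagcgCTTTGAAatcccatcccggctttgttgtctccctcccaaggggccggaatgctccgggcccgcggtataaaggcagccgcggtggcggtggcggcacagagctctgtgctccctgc
The core was found in the DKK1 window and not in the others shown. WNT5A, SFRP4, SFRP1 and DKK2, which were also called higher in baboon stroma-like cells, had none either. DKK1 was not tested in the rhesus monkey, from which these windows come. It was present in 5 of the 46 promoters of the genes described (DKK1, DKK4, FZD7, WNT8B and WNT11) and in 1322 of 20787 promoters in the RefSeq table (6.36%). AXIN2 had none in this window.

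Dickkopf genes fell into 2 patterns. DKK1 and DKK2, which block the co-receptors, were found in baboon stroma-like cells, and DKK2 in endothelial-like cells as well. DKK1 had 8.02 and 9.15 CPM in stroma-like cells and 0 and 0.507 CPM in Sertoli-like cells. DKK2 had 12.5 and 9.15 CPM in stroma-like cells, 12.5 and 33.9 CPM in endothelial-like cells and 0.0648 and 0.387 CPM in Sertoli-like cells (log2 difference -5.57 ± 0.84 for Sertoli-like against stroma-like cells, adjusted p = 0.00289). Stroma-like and endothelial-like values of DKK2 overlapped. DKK3, a divergent member of the family, had 13412 UMIs in baboon and 6593 in rhesus cells. Baboon pericyte-like, stroma-like and Sertoli-like cells held 294 and 192, 182 and 226, and 104 and 212 CPM, and these 3 classes overlapped. Germ-like cells had 19.2 and 65.4 CPM, below the other classes (log2 difference -2.01 ± 0.43, adjusted p = 0.00548). Rhesus Sertoli-like cells held 147 and 245 CPM, stroma-like cells 134 and 129 CPM and pericyte-like cells 86.2 and 151 CPM of DKK3. Each of these 3 rhesus classes was higher than the mean of the others (adjusted p = 8.37e-05, 0.00157 and 0.0148), beside 8.04%, 3.52% and 2.13% of all genes, and Leydig-like, endothelial-like and germ-like cells, at 9.76 to 22.2 CPM, were lower (adjusted p = 0.0130, 0.00341 and 0.00225). DKK3 in free RNA was at 66.5 to 195 CPM in the baboon and 108 to 154 CPM in the rhesus libraries, the latter above the rhesus Leydig-like, germ-like and endothelial-like levels. In rhesus 1 the 108 CPM also lay above the 86.2 CPM of pericyte-like cells. The 154 and 145 CPM of libraries 2A and 2B lay above the 129 CPM of stroma-like cells and around the 151 CPM of pericyte-like cells. Baboon libraries 1A and 1B, at 124 and 66.5 CPM, lay on both sides of the 104 CPM of Sertoli-like cells. The part of free RNA in these levels was not tested.

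AXIN2, a direct target of β-catenin that limits the pathway, was highest in baboon germ-like cells, with 39.4 and 18.3 CPM. Stroma-like cells had 13.5 and 17.3 CPM, endothelial-like cells 8.36 and 14.8 CPM and Sertoli-like cells 5.41 and 7.81 CPM. Germ-like cells were higher than the mean of the other classes (log2 difference 1.48 ± 0.47, adjusted p = 0.0336). Stroma-like and Sertoli-like values did not overlap, but the difference of -1.31 ± 0.53 missed the threshold (adjusted p = 0.131) and passed it with the animal as a block (adjusted p = 0.0238). With 69 UMIs in all rhesus cells, AXIN2 was not tested there, and its level was 0.348 to 5.26 CPM in Sertoli-like, stroma-like and germ-like cells. Rhesus WIF1 had 7.89 and 3.89 CPM in Sertoli-like cells and 1.45 and 0.141 CPM in stroma-like cells. Germ-like cells, with up to 6.84 CPM of WIF1, overlapped with Sertoli-like cells and had the higher mean.

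Some genes were lower in a class than in the mean of the other classes. Baboon germ-like cells were lower for 4 of 21 genes (FZD4, DKK3, LRP6 and WNT6), beside 11.1% of all genes, with 13.7 and 11.6 CPM of FZD4 (log2 difference -2.03 ± 0.35, adjusted p = 0.00156). Baboon Sertoli-like cells were lower for 5 genes (LRP5, SFRP4, FZD4, WNT3 and FZD3), beside 9.47%, with a log2 difference of -3.46 ± 0.40 for LRP5 (adjusted p = 0.000806). FZD3, with 0 and 1.06 CPM, was the 1 gene lower in baboon endothelial-like cells (adjusted p = 0.0314), beside 1.78%, and with the animal as a block there were 4 (FZD3, DKK3, FZD7 and WNT6), beside 4.78%. DESeq2 called FZD7 there (adjusted p = 0.0456), beside 3.05%, and not FZD3 (adjusted p = 0.0551). Rhesus germ-like cells were lower for 2 of 10 genes (DKK3 and RSPO3), beside 12.6%. They were higher for 0 of 10 by edgeR and by DESeq2 (0 genes at an unadjusted p below 0.05 by each), beside 24% by edgeR. DKK3 was the 1 gene called lower in rhesus Leydig-like cells, beside 0.504%, and in rhesus endothelial-like cells, beside 1.37%, where SFRP1 joined it with the block, beside 4.05%. No rhesus gene was lower in Sertoli-like cells by edgeR (1 gene at an unadjusted p below 0.05), beside 4.25%. The block called 2 (RSPO3 and SFRP1), beside 8.14%. DESeq2 called 1 gene (RSPO3), a count given without its share of all genes, so it cannot be set against the background.

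**Figure D3:**
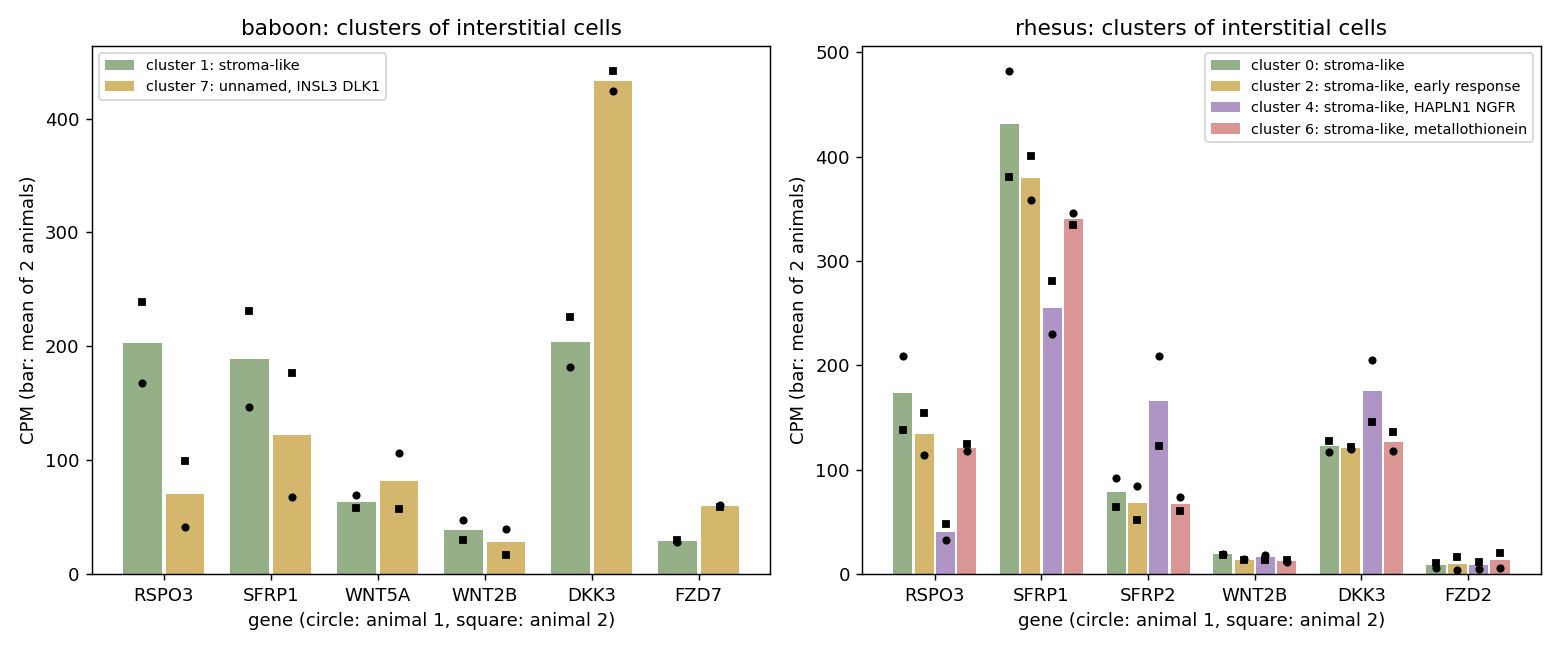
Level in CPM of 6 genes in clusters of interstitial cells in the baboon (left) and the rhesus monkey (right), with bars as the mean of 2 animals, circles for animal 1 and squares for animal 2. In the baboon, DKK3 is at 425 and 442 CPM in cluster 7, and among the 4 rhesus clusters shown cluster 4 has the lowest RSPO3 and the highest SFRP2.

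Within the interstitium, the genes varied from cluster to cluster. The comparison has no test, as the clusters were drawn from the same cells. In the baboon, an unnamed cluster of 1270 cells was led by INSL3, DLK1, COL15A1 and STC1 and held stroma markers at 8535 and 9396 CPM and Leydig markers at 773 and 1005 CPM. It had 425 and 442 CPM of DKK3, above the 182 and 226 CPM of stroma-like cells, and 60.6 and 58.6 CPM of FZD7, above 28.1 and 30.2 CPM. RSPO3 was lower there, at 41.4 and 99.3 CPM, and SFRP1 had 67.5 and 177 CPM, which overlapped with stroma-like cells. WNT5A had 106 and 57.6 CPM, which also overlapped. In the rhesus monkey, the Leydig-like cells, with INSL3 and CYP17A1 among their leading genes, had 18.0 and 9.76 CPM of DKK3 and 7.06 and 3.66 CPM of RSPO3.

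The rhesus stroma-like class was made of 7 clusters, and the 4 largest are described here. The largest (8166 cells, with IGFBP3, POSTN, LUM and RSPO3 itself among its leading genes) had 209 and 138 CPM of RSPO3 and 92.5 and 64.8 CPM of SFRP2. A cluster of 2135 cells led by HAPLN1, WFDC1, TGFBI and NGFR had 32.7 and 48.0 CPM of RSPO3 and 209 and 123 CPM of SFRP2, so RSPO3 was lower and SFRP2 higher in both animals without overlap. SFRP1 was lower there as well, at 230.0 and 280.5 CPM against 482 and 380 CPM, and DKK3 was higher, at 205 and 146 CPM against 117 and 128 CPM. The clusters led by early response genes (3968 cells) and by metallothioneins (635 cells) had 114 and 155 CPM, and 118 and 125 CPM, of RSPO3.

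**Figure D4:**
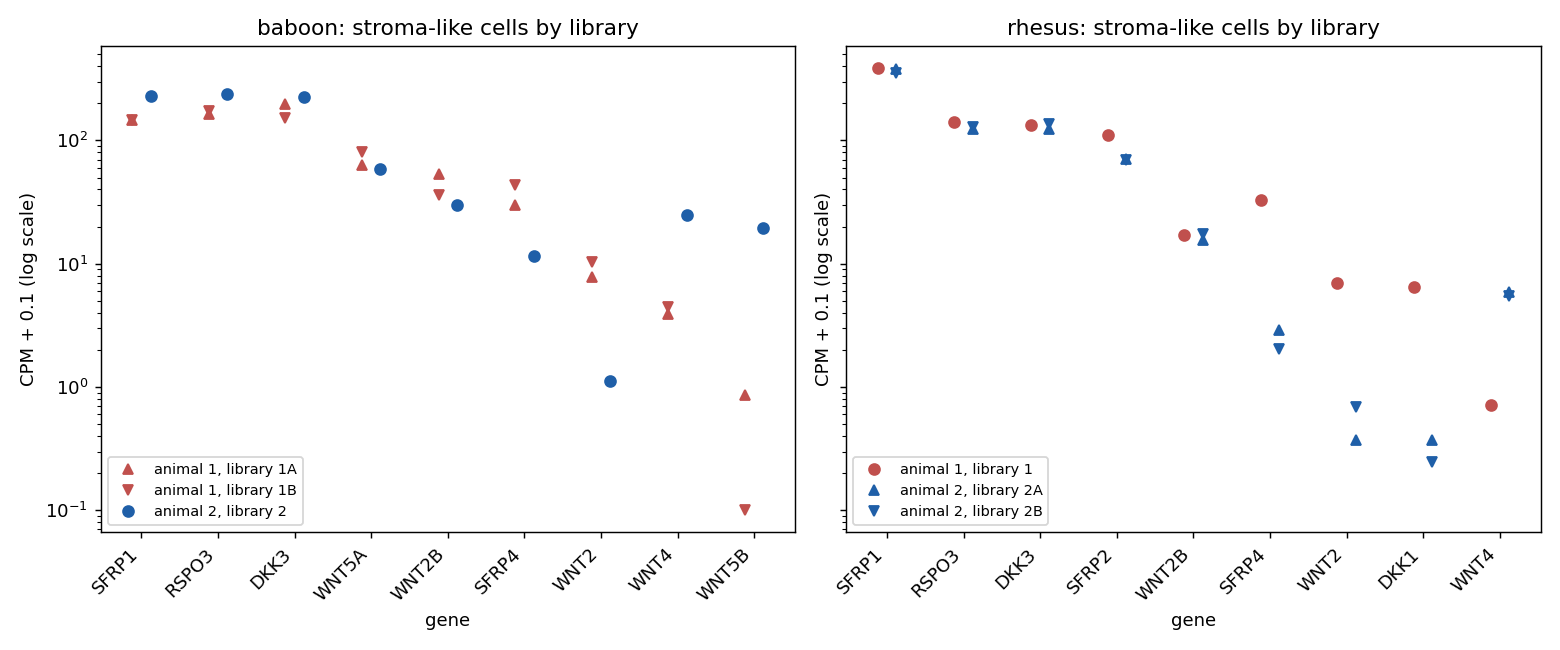
Level in stroma-like cells of each library (CPM + 0.1, log scale) of 9 genes in the baboon (left) and the rhesus monkey (right), with red for animal 1 and blue for animal 2, and triangles for the 2 libraries of 1 animal. SFRP4 and WNT2 are higher in animal 1 and WNT4 in animal 2 of each species, and the 2 libraries of 1 animal lie close together for most genes.

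Some genes separated the 2 animals of a species within the stroma-like class. WNT2 was named for this after its values were seen. With 1 animal on each side, these are values with no test. In the rhesus monkey SFRP4 had 32.5 CPM in library 1, and 2.83 and 1.92 CPM in libraries 2A and 2B. WNT2 had 6.84 CPM in library 1 and 0.269 and 0.592 CPM in 2A and 2B (2 and 4 UMIs). DKK1 had 6.42 CPM against 0.269 and 0.148 CPM (2 and 1 UMIs). WNT4 went the other way, with 0.621 CPM in library 1 and 5.79 and 5.32 CPM in 2A and 2B. In the baboon SFRP4 had 29.9 and 43.4 CPM in libraries 1A and 1B and 11.4 CPM in baboon 2. WNT2 had 7.67 and 10.1 CPM in 1A and 1B and 1.02 CPM in baboon 2. WNT4 had 3.84 and 4.34 CPM in 1A and 1B and 24.9 CPM in baboon 2, and WNT5B had 0.767 and 0 CPM (1 and 0 UMIs) beside 19.6 CPM. The libraries of the same animal lay closer together than the animals did for each of these genes. SFRP1, RSPO3 and DKK3 differed between the animals by much less, as the plot of stroma-like cells by library shows. SFRP4 was also higher in rhesus animal 1 in Leydig-like cells (18.8 against 1.22 CPM), macrophage-like cells (31.0 against 4.75 CPM) and free RNA (9.87 CPM in library 1, and 0 in libraries 2A and 2B), and the part of free RNA in the other classes was not tested. Both the Leydig-like and the macrophage-like value of animal 2 lie under the level that 3 UMIs would give.

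The other genes of the pathway were taken from 7 lists of 70 genes, of which the baboon tests held 53 and the rhesus tests 39. Differences among classes were found for 32 and 23 of them, beside 48.6% and 45.8% of all genes. These shares are also the background for the counts by list. Some genes, such as NOTUM and APCDD1, are counted in more than 1 list. In ligand secretion and removal, NOTUM, an enzyme that removes the WNT lipid, had 31.1 and 20.2 CPM in baboon germ-like cells and at most 2.12 CPM in the other classes, and WLS, which carries WNTs to the cell surface, differed in both species (adjusted p = 0.0189 and 0.00206). WLS was at 56.7 and 70.9 CPM in Sertoli-like and 38.1 and 42.9 CPM in stroma-like cells of the baboon, and at 93.0 and 121 CPM and 52.1 and 57.4 CPM in the rhesus monkey. It was not called between these classes in either species. Baboon pericyte-like cells held 64.2 and 153 CPM of WLS, and rhesus peritubular myoid-like cells 130 and 76.8 CPM. PORCN, which adds the lipid, did not pass in either species (adjusted p = 0.652 and 0.221).

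Among the other receptors, 8 of 9 tested baboon genes and 4 of 7 rhesus genes differed, beside 48.6% and 45.8% of all genes. TSPAN12, the partner of FZD4, had 20.9 and 43.5 CPM in baboon and 86.7 and 117 CPM in rhesus endothelial-like cells, beside 0.0973 and 0.149 CPM and 1.74 and 3.39 CPM in Sertoli-like cells (adjusted p = 0.000373 and 0.000197 among classes). LGR4, an R-spondin receptor, had 75.2 and 110 CPM in rhesus Sertoli-like and 24.2 and 16.1 CPM in rhesus stroma-like cells. The log2 difference was 2.07 ± 0.41 (adjusted p = 0.00466), and that of the baboon was 1.60 ± 0.48 (adjusted p = 0.0458). Rhesus Leydig-like cells held 34.5 and 76.8 CPM of LGR4, which overlapped with Sertoli-like cells, and peritubular myoid-like cells 43.5 and 69.8 CPM. ROR2, a receptor for WNT5A, was lower in Sertoli-like than in stroma-like cells of both species, with 0.0973 and 0.268 CPM against 7.02 and 5.59 CPM in the baboon (adjusted p = 0.00376, and 0.0319 in the rhesus monkey). Germ-like cells held 23.8 and 11.6 CPM of ROR2 in the baboon and 3.76 and 64.9 CPM in the rhesus monkey. Of the secreted or surface modulators, 5 of 5 baboon and 3 of 3 rhesus genes differed, and FRZB (SFRP3) had 500.2 and 405 CPM in rhesus peritubular myoid-like cells, which number 23 and 76, and 111 and 32.5 CPM in stroma-like cells.

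Intracellular components differed in 3 of 12 baboon and 4 of 12 rhesus genes, below the 48.6% and 45.8% of all genes. CTNNB1, which encodes β-catenin, was at 393 and 371 CPM in baboon and 265 and 343 CPM in rhesus endothelial-like cells, and at 214 and 213 CPM and 129 and 176 CPM in Sertoli-like cells. Nuclear factors differed in 5 of 10 and 5 of 9 genes, near these shares of all genes. TCF7L1 had 28.1 and 30.2 CPM in baboon stroma-like and 0.519 and 1.85 CPM in Sertoli-like cells, and was lower in Sertoli-like cells in both species. Baboon endothelial-like and pericyte-like cells held more of TCF7L1, at 68.2 and 54.1 CPM and 69.5 and 33.9 CPM. Feedback and response genes differed in 10 of 12 and 5 of 6 genes. APCDD1, a membrane inhibitor of the pathway, had 0.162 and 0.834 CPM in baboon and 1.51 and 1.13 CPM in rhesus Sertoli-like cells, against 11.5 and 25.9 CPM and 22.4 and 22.1 CPM in stroma-like cells. Its endothelial-like levels were 27.9 and 40.3 CPM in the baboon and 21.7 and 151 CPM in the rhesus monkey. Genes of planar cell polarity differed in 4 of 7 and 2 of 2 genes, and DAAM2 had 112 and 39.5 CPM in baboon pericyte-like cells. Over all lists, 4 baboon genes (DACT2, DAAM1, LGR4 and RNF43) of 53 were higher and 10 lower in Sertoli-like than in stroma-like cells, beside 6.68% and 11.3% of all genes. Of the 39 rhesus genes 1 (LGR4) was higher and 8 lower, beside 6.15% and 6.8%.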

How the data were processed

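Counts of UMIs per gene and barcode were deposited by the authors, who made them with Cell Ranger 3.1.0 on Panubis1.0 (baboon) and Mmul_10 (rhesus monkey), for all barcodes and with libraries kept apart. The submitters' processing notes also name Seurat 3.2.3. Cells were called here by a UMI cutoff and, from 500 UMIs, by a profile that differed from free RNA (false discovery rate 0.01), with at least 200 genes. Clusters came from SCTransform and integration of libraries (Seurat 5.3.0, sctransform 0.4.2, R 4.3.3, 30 components, resolution 0.5), without the genes described or the other pathway genes. Cells marked as doublets (4.46 to 8.91% per library) were kept.

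UMIs were summed per animal and class, for classes with at least 20 cells in each animal, and tested with edgeR 4.0.16 (TMM, filterByExpr, quasi-likelihood test, Benjamini-Hochberg adjustment over all genes tested). DESeq2 1.42.0 was an alternative. Each class was compared with the unweighted mean of the others. The animal as a replicate block was an alternative, and sums of 1 animal do pair: deviations from the class means correlated above 0.1 in 10 of 10 baboon and 26 of 28 rhesus pairs of classes. Shares of cells used cells thinned to 1000 UMIs with 95% Clopper-Pearson intervals, which cover counting error only.

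The genes and lists were chosen with earlier results of these data known, and the rule that names clusters was revised after first names were seen. Genes with at least 100 UMIs in a species are named there, and others where they passed a test. Of the other pathway genes, up to 4 per list with the largest F are named. Promoters were searched on both strands for CTTTGAT or CTTTGAA, and for 2 other motifs that are not reported. Symbols of 45 of 45 baboon and 44 of 44 rhesus genes matched a RefSeq position.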

Additional observations from a re-analysis of the deposited data

Results flagged for a closer look

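DKK3 differed between Sertoli-like and stroma-like cells in opposite directions in the 2 species. The Sertoli-like level minus the stroma-like level was -77.98 and -14.43 CPM in baboons 1 and 2, and 13.82 and 116 CPM in rhesus 1 and 2, so that each animal of a species moved the same way. The difference between the species was not tested, and within a species the contrast missed the threshold (edgeR quasi-likelihood test, adjusted p = 0.573 for baboons and 0.469 for rhesus monkeys).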

How the results depend on the processing

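With no filter on low counts, 30 baboon genes differed among classes (18 with it), 3 were higher and 17 lower in Sertoli-like than in stroma-like cells (1 and 11), and 26 were higher in at least 1 class (17). In the rhesus monkey the same setting gave 18 (7), 4 and 11 (1 and 4), and 21 (8). Without the filter the fits held 25442 baboon and 18704 rhesus genes (12794 and 9528 with it). Counts given here without a share of all genes cannot be set against the background. The baboon count of genes higher in Sertoli-like cells was 2 with DESeq2, with doublets left out, with log-normalized clustering and at resolution 0.3, and 3 with libraries as samples or with the replicate block. The rhesus count was 2 with the UMI cutoff alone, with log-normalized clustering and with cells of at least 1000 UMIs. The UMI cutoff alone, which kept 2205 of 7923 cells of baboon 2, gave 6 baboon genes lower in Sertoli-like cells and turned baboon RSPO2 to a log2 difference of 1.68, a gene with 0 or 1 UMI per animal in stroma-like cells. FZD3, LRP5 and WNT11 also missed the threshold under it, and FZD4 under it, without the filter and at resolution 0.8. With DESeq2, 5 baboon genes were higher in pericyte-like cells than in the other classes (1 by edgeR), beside 7.14% of all genes (4.91% by edgeR). Its count of genes lower in Sertoli-like cells than in the other classes was 8 (5 by edgeR), beside 19.3% (9.47% by edgeR). The cause was not tested. Of 100 recomputed counts 82 stayed within 1.5 times, and of 296 log2 differences 265 kept their direction and side of the threshold. Shares of Sertoli-like and stroma-like cells with a UMI depended on depth. Thinned to 500 UMIs or not thinned, 122 of 140 lay outside the 95% interval of the share at 1000 UMIs. The block also added baboon FZD7 to the genes lower in germ-like cells (5, not 4), beside 17.4% of all genes. Baboon LRP5 was added to those lower in stroma-like cells (1, not 0), beside 8.35%. Rhesus SFRP1 joined those lower in germ-like cells (3, not 2) and rhesus SFRP4 those higher in stroma-like cells (6, not 5). These come on top of the changes given in the report.

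Leaving out an animal left no residual degrees of freedom and so gave values only. Of 62 log2 differences, 13 moved by at least the SE of the main fit. A change of sign was looked for only in genes called in the main fit, where it was seen in 0. With 2 animals per species, chemistry, age and animal cannot be told apart. Baboon pericyte-like and rhesus peritubular myoid-like classes are small, so that 1 UMI is worth over 5 CPM there.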

Other observations

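A rhesus cluster of 56 cells, like rete or other epithelium and led by LCN2, PTGDS and KRT19, was too small to test, with 2 cells in animal 1 and 54 in animal 2. In animal 2, WIF1 had 16 UMIs in it (141 CPM) and RSPO1 had 11 (97.0 CPM), of 155 and 88 UMIs in all rhesus cells. Both genes were chosen after their values were seen. In an unnamed baboon cluster of 224 cells led by PTGDS and WFDC2, RSPO3 had no UMI in either animal and DKK3 had 160 and 245 CPM.

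The ligand WNT7B, with few UMIs, was read mainly in germ-like cells. It had 5 and 6 of its 17 baboon UMIs, and 14 and 1 of its 17 rhesus UMIs, in germ-like cells of animals 1 and 2. WNT5B had 9 and 8 of its 52 rhesus UMIs in germ-like cells (6.77 and 13.7 CPM) and 10 and 12 in the far larger stroma-like class (1.04 and 0.846 CPM). Both genes were chosen after their values were seen, and neither was tested in the rhesus monkey.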
